A study of Arabidopsis thaliana with 12 samples.

Results

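The mature microRNAs (miRNAs) of whole Arabidopsis thaliana seedlings were compared between the ktn1 mutant and the wild type (WT) in 4 of the 12 libraries of the series, those whose titles name the seedling and the genotype. KTN1 encodes the catalytic subunit of katanin, the enzyme that severs microtubules. The ktn1 group held 2 libraries of total small RNA from seedlings carrying the ktn1-20 allele, and the WT group held 2 libraries from seedlings without it. All 4 came from ecotype Col-0 seedlings that carried no transgene and were collected at 14 days. The other 8 libraries held small RNA bound to GFP-tagged ARGONAUTE 1 (AGO1) from 9-day roots, in which the EN7 or the ACL5 promoter drove the tagged protein in both genotypes. A single mutant allele was used, and the labels do not say whether replicates were grown apart or how many seedlings were pooled. The p-values therefore measure only the spread between these libraries, which may be technical. KTN1 mRNA is not among mature miRNAs, so the genotype labels could not be checked in these values.

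Plant miRNAs are cut from hairpin precursors by DICER-LIKE 1, which releases a duplex with 1 strand from the 5′ arm (5p) and 1 from the 3′ arm (3p). AGO1 retains one of these as the guide, and the guide directs cleavage or translational repression of complementary mRNAs. Most of the partner strand, the star strand, is degraded. Many conserved families act on transcription factors that set seedling growth: miR156 and miR157 on SPL factors that promote the adult phase, miR172 on APETALA2-like factors, and miR165/miR166 on the HD-ZIP III factors that pattern leaves and vessels.

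The seedling files listed 223 entries, each a mature sequence named after 1 or more loci, against 240 entries over the whole series; 43 of the 223 were listed in the seedling files only. The names covered 283 mature products, all of which matched a precursor gene in the RefSeq annotation, and 128 families by number, with miR165 and miR166 counted as 1 family. An entry joined several identical products in 36 cases. The arm was 5p for 61 entries and 3p for 73, and 89 names gave no arm. Values were reads per 1000000 (RPM). They were whole multiples of the value of 1 read, from which 13769316 to 44332443 reads per library and 231745 to 962372 miRNA reads were inferred. A floor of 3 reads corresponds to 0.0677 and 0.218 RPM in ktn1 and to 0.218 and 0.192 RPM in WT. Reads were not deduplicated with molecular identifiers, so floors and intervals cover counting error only.

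The catalogue was steep. Of the 223 entries, 20 averaged at least 100 RPM and 96 averaged below 1 RPM, while 185 had a value above 0 in all 4 libraries. No entry was absent from both libraries of a genotype while reaching 3 reads in both of the other. The 10 highest entries carried 81.1% and 80.2% of the summed miRNA RPM in ktn1, against 83.4% and 81.3% in WT.

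miR159 and miR158 ranked first and second in every library. miR159, which represses GAMYB-like transcription factors, took 35.2% and 32.0% of the miRNA RPM in ktn1, against 31.5% and 30.4% in WT. miR158, a family of the mustard relatives, took 16.7% and 17.1% in ktn1, against 22.9% and 20.0% in WT. In share, both ktn1 libraries thus lay above both WT libraries for miR159 and below them for miR158. A share also depends on the levels of the other families. In RPM the miR159 family had 7650 and 5391 in ktn1 against 7721 and 6435 in WT. These overlapped, with a log2 difference of -0.13, while the miR158 family stayed lower without overlap. Next came miR398, which acts on copper/zinc superoxide dismutases, at 7.38% and 8.68% in ktn1 against 8.11% and 6.08% in WT, with overlapping genotypes. miR161, which acts on pentatricopeptide repeat genes, took 6.17% and 6.71% in ktn1 against 7.39% and 8.12% in WT. miR165/miR166 took 5.76% and 6.23% in ktn1 against 5.13% and 6.05% in WT, and these overlapped.

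Over the 38 families with enough reads to be tested, the share lay higher in both ktn1 libraries for 11 (28.9%) and lower for 9 (23.7%). miR156 took 3.83% and 3.99% of the miRNA RPM in ktn1, against 4.45% and 5.92% in WT. miR162, which targets the mRNA of DICER-LIKE 1 itself, took 3.93% and 4.14% in ktn1, against 2.53% and 2.88% in WT. ktn1 was lower for miR156 and higher for miR162, each without overlap. The Wilson 95% interval around any of these single-library shares was at most 0.19 percentage points to either side. An exact two-sided permutation test gave p = 0.333 for the shares of miR159, miR158, miR161, miR156 and miR162, which is the smallest p that 2 against 2 libraries allow, and 0.4 after adjustment over 6 shares. The lack of overlap in these families fixes that p in advance, so the test adds no support to the differences. The overlapping shares of miR398 and miR165/miR166 were not tested.

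**Figure D1:**
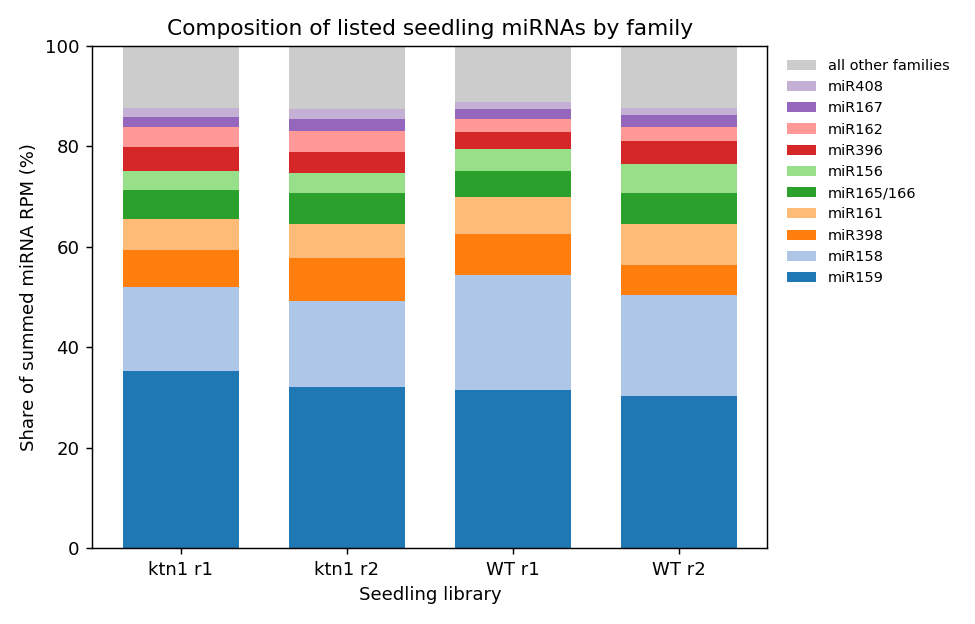
Share of the summed miRNA RPM (vertical axis, percent) taken by the 10 most abundant families in each of the 4 seedling libraries (bars), with all other families in grey. miR159 forms the largest block, at 35.2% and 32.0% in ktn1 and 31.5% and 30.4% in WT, and the miR158 block is smaller in both ktn1 libraries than in both WT libraries.

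By strand, the arm-named RPM came mainly from the 3′ arm, since miR158a-3p, miR159b-3p, miR398b-3p and other leading entries lie there. Entries without an arm name, miR159a and miR161.1 among them, are outside this split. They took 26.1% and 26.1% of the miRNA RPM in ktn1, against 28.3% and 28.1% in WT. The 5p share of the arm-named RPM was 18.2% and 18.0% in ktn1, against 17.5% and 21.1% in WT. Both ktn1 values lay between the 2 WT values, and the difference of -1.22 percentage points gave p = 1.0 in an exact two-sided permutation test. Without miR158a-3p, the highest entry, the difference was -4.01 points, and both ktn1 libraries then lay below both WT libraries. Summed over all entries, miRNAs reached 21708 and 16826 RPM in ktn1, against 24496 and 21180 RPM in WT. The genotypes overlapped, and the log2 difference of -0.25 gave p = 0.667 in the same exact test.

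To ask which miRNAs differed by genotype, 62 entries that reached 10 RPM in 2 or more libraries were tested with limma on log2(RPM + 1), a scale that understates the change of low entries. A single entry fell in ktn1 and none rose at an adjusted p under 0.05, a share called of 1.61% lower and 0.0% higher, and 6 had an unadjusted p under 0.05 (9.68%). The median log2 difference was -0.13, with 42 entries negative and 20 positive. Both ktn1 libraries lay below both WT libraries for 22 entries (35.5%) and above them for 6 (9.68%).

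The balance of directions differed between the ktn1 libraries, of which replicate 2 is the library with the lowest miRNA total. Replicate 2 had a median log2 difference of -0.36 from WT replicate 1 and of -0.29 from WT replicate 2 over the 62 entries. ktn1 replicate 1 differed by -0.08 and 0.02 from the same libraries, while the 2 ktn1 libraries differed from each other by 0.29. The gap within ktn1 was wider than the median limma difference of -0.13 between the genotypes. It was narrower than the -0.36 between ktn1 replicate 2 and WT replicate 1. Rescaling the libraries to equal summed miRNA RPM moved the median difference of all tested entries to 0.12 and turned the split round, with 13 entries lower and 21 higher without overlap. Under both rescalings and as deposited, 13 entries stayed lower without overlap and 6 stayed higher.

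**Figure D2:**
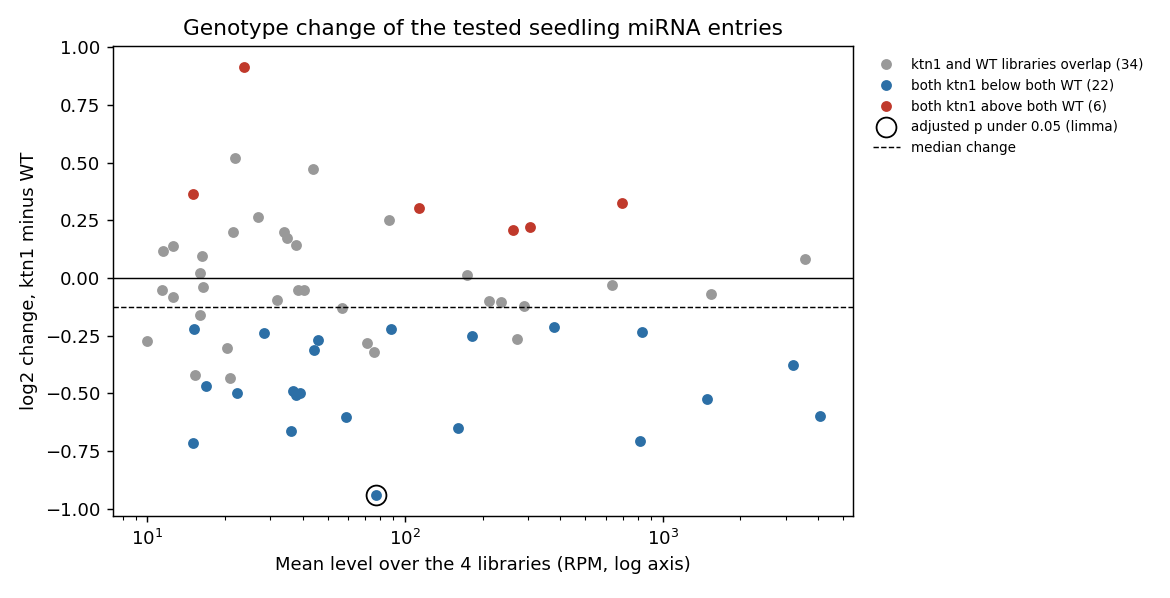
Log2 difference, ktn1 minus WT (vertical axis), against the mean RPM over the 4 libraries (horizontal log axis) for the 62 tested entries, coloured by whether both ktn1 libraries lay below, above or among the WT libraries. The ring marks the miR157 5p entry, the only one past an adjusted p of 0.05, and the dashed line is the median of -0.13.

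The phase-change miRNAs held the called entry. The joined entry of miR157a-5p, miR157b-5p and miR157c-5p, made from the loci AT1G66783, AT1G66795 and AT3G18217, had 58.4 and 47.1 RPM in ktn1, against 112.7 and 91.3 RPM in WT. Both ktn1 libraries were near 50 RPM and neither reached the lower WT library. The entry fell to 0.521 of the WT level, a log2 difference of -0.94 (SE 0.27, limma adjusted p = 0.0492), with -0.94 in each pair of same-numbered libraries. The call is marginal: it was lost without ktn1 replicate 2 (adjusted p = 0.0864), WT replicate 1 (0.506) or WT replicate 2 (0.368). It was also lost at equal summed miRNA RPM, where the difference was -0.69 (adjusted p = 0.191).

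The main miR156 entry, shared by 6 loci from miR156a to miR156f, had 692 and 553 RPM in ktn1, against 969 and 1054 RPM in WT. All 4 libraries placed the genotypes apart, and the log2 difference was -0.71 (SE 0.24, limma adjusted p = 0.0726), short of the threshold. The star strands overlapped between genotypes. miR156c-3p had 71.3 and 61.9 RPM in ktn1 against 67.8 and 102.1 RPM in WT, and miR156a-3p had 58.1 and 48.0 RPM in ktn1 against 41.7 and 80.1 RPM in WT. The star strand of miR157a and miR157b had 52.4 and 45.7 RPM in ktn1 against 22.0 and 55.4 RPM in WT, and that of miR157c had 13.0 and 9.22 RPM in ktn1 against 5.30 and 18.4 RPM in WT. In the last 3 of these 4 star entries the WT libraries lay on either side of both ktn1 libraries. Of the untested members, miR156b-3p had 7.96 and 6.24 RPM in ktn1 against 5.45 and 12.5 RPM in WT, and miR156g had 3.02 and 1.74 RPM in ktn1 against 3.56 and 5.37 RPM in WT. miR156f-3p stayed at or below 0.29 RPM throughout, and miR156j had 0.135 and 0 RPM in ktn1 against 1.45 and 0 RPM in WT.

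miR172 acts after miR156 in the same developmental sequence, where its level commonly climbs as miR156 declines. The miR172a and miR172b-3p entry had 11.9 and 10.4 RPM in ktn1, against 17.4 and 20.5 RPM in WT, a log2 difference of -0.71 (SE 0.33, limma adjusted p = 0.392). The less abundant miR172c and miR172d-3p entry, below the level tested, had 3.45 and 3.99 RPM in ktn1, against 1.82 and 1.98 RPM in WT. The 2 entries therefore sat on opposite sides of WT, each without overlap. The WT values of the miR172c and miR172d-3p entry rest on 25 and 31 reads. Whether reads were split between the 2 entries in counting was not tested. miR172e-3p had 0.654 and 0.508 RPM in ktn1 against 1.02 and 1.15 RPM in WT. The 2 star entries, the joined miR172b-5p and miR172e-5p entry and miR172d-5p, lay below 1.1 RPM in every library.

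At the family level none of 38 families passed an adjusted p under 0.05 in either direction (0.0%), while 8 had an unadjusted limma p under 0.05 (21.1%). Both ktn1 libraries lay below both WT libraries for 17 families (44.7%) and above them for 4 (10.5%). The phase-change list of miR156, miR157 and miR172 had no called family among 3, all without overlap and lower, with a median log2 difference of -0.43 against -0.17 over all 38 families. At equal summed miRNA RPM these medians were -0.18 and 0.08, with 1 of the 3 families still without overlap, and over all 38 families the split was 9 lower and 11 higher. For miR156 the summed family had 832 and 671 RPM in ktn1, against 1090 and 1254 RPM in WT (log2 difference -0.65, SE 0.22, limma adjusted p = 0.0771). miR391, a relative of miR390, came nearest to the threshold, with 9.16 and 8.49 RPM in ktn1 against 12.4 and 13.5 RPM in WT (log2 difference -0.51, SE 0.15, limma adjusted p = 0.0531). Its genotypes did not overlap, and it is among the 17 lower families. It reached the 10 RPM filter in the WT libraries only, so the filter itself favoured a lower ktn1 value.

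miR165/miR166 were of interest because the series profiles their AGO1 loading in root layers. The joined miR166 3p entry of 7 loci had 854 and 677 RPM in ktn1 against 865 and 924 RPM in WT, and the miR165 entry had 240.9 and 212.9 RPM in ktn1 against 250.6 and 235.9 RPM in WT. For miR166 the groups did not overlap, with ktn1 lower by a log2 difference of -0.23 (SE 0.24), which turned to 0.02 at equal summed miRNA RPM. The star strands were measured as well. miR166a-5p and miR166b-5p had 125.3 and 125.2 RPM in ktn1, against 104.9 and 97.9 RPM in WT, a log2 difference of 0.30 (SE 0.24, limma adjusted p = 0.651). This entry was higher in both ktn1 libraries. miR165a-5p had 22.6 and 22.9 RPM in ktn1 against 25.2 and 15.3 RPM in WT, and the untested miR166e-5p had 8.86 and 9.66 RPM in ktn1 against 10.7 and 7.87 RPM in WT, both with overlap. HD-ZIP III regulation was represented by this family alone, which was not called (log2 difference -0.15, or 0.11 at equal summed miRNA RPM).

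All 5 families on the auxin list, miR160, miR167, miR390, miR391 and miR393, lay lower in both ktn1 libraries, with none called and a median log2 difference of -0.51, beside 44.7% of all 38 families lower without overlap and their median of -0.17. Of these, miR391, whose value is the list median, passed the filter through its WT libraries only. At equal summed miRNA RPM the median was -0.28, 3 families were lower without overlap (23.7% of all families, whose median was 0.08), and miR167 and miR390 changed sign. The entry miR393b-3p, whose partner strand targets the TIR1/AFB auxin receptors, had 146.4 and 104.2 RPM in ktn1, against 182.0 and 208.1 RPM in WT. Its log2 difference was -0.65 (SE 0.22, limma adjusted p = 0.0726). The miR393 family sum is mostly this star strand. The guide entry, miR393a-5p and miR393b-5p, was below the level tested. It had 2.68 and 2.61 RPM in ktn1 against 2.47 and 3.07 RPM in WT, with overlap. miR160, which targets repressive auxin response factors, had 30.1 and 25.6 RPM in ktn1 against 41.9 and 47.3 RPM in WT (log2 difference -0.66, SE 0.36, adjusted p = 0.518). miR167, which targets activating auxin response factors, was mixed. Its main entry, miR167a-5p and miR167b, had 379 and 321 RPM in ktn1 against 407 and 400.4 RPM in WT (log2 difference -0.21, SE 0.21). By contrast miR167c-3p had 29.6 and 31.7 RPM in ktn1, against 11.2 and 22.1 RPM in WT, the largest positive difference among the 62 entries (log2 0.91, SE 0.37, limma adjusted p = 0.215). Its 2 WT libraries lay further apart than the gap to ktn1.

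**Figure D3:**
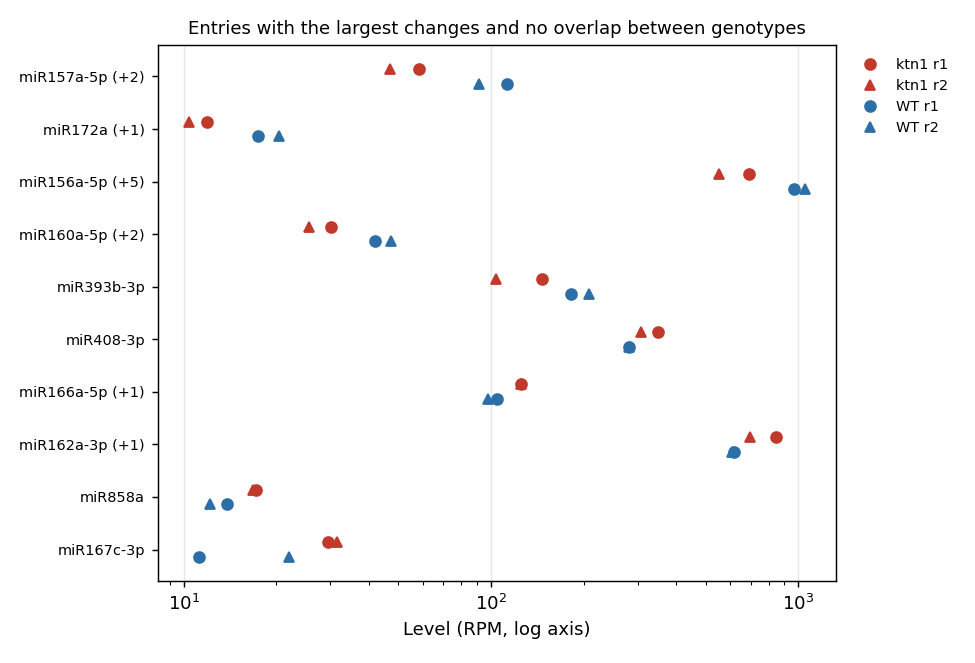
RPM in each library (horizontal log axis) for the 5 lower and 5 higher tested entries with the largest log2 differences and no overlap between genotypes; red is ktn1, blue is WT, circles are replicate 1 and triangles replicate 2. A number in brackets counts further products joined in the entry, and the miR157 5p entry at the top has both ktn1 libraries below both WT libraries.

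Among the most abundant entries, miR158a-3p had 3599 and 2849 RPM in ktn1, against 5584 and 4199 RPM in WT. The libraries of each genotype spread widely but did not overlap, and the log2 difference was -0.60 (SE 0.39, limma adjusted p = 0.643). miR161.1 had 1323 and 1116 RPM in ktn1, against 1792 and 1705 RPM in WT, a log2 difference of -0.52 (SE 0.28, adjusted p = 0.518). On the list of Brassicaceae families 3 were tested (miR158, miR161 and miR163), all lower without overlap and none called, with a median log2 difference of -0.52, beside 44.7% of all families lower without overlap. At equal summed miRNA RPM the median was -0.27, miR163 changed sign, and 2 of 3 were lower without overlap, beside 23.7% of all families. The list of triggers of trans-acting small interfering RNAs (miR161, miR173 and miR390) had 3 of 3 lower without overlap and none called, with a median of -0.28. At equal summed miRNA RPM 1 of 3 was lower without overlap, the median was -0.03, and miR390 changed sign.

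The near-identical products of the miR159 family had unlike differences, with the caution that reads could be split between them in counting. miR159a had 3184 and 2412 RPM in ktn1 against 4009 and 3232 RPM in WT, a log2 difference of -0.38 (SE 0.36). miR159b-3p had 4414 and 2954 RPM in ktn1 against 3666 and 3177 RPM in WT, a log2 difference of 0.08 (SE 0.37). The genotypes stood apart for miR159a and overlapped for miR159b-3p. With miR319, which represses TCP factors, the family list gave 1 of 2 higher without overlap, beside 10.5% of all families, and none called. Its median was 0.04, or 0.29 at equal summed miRNA RPM, where miR159 changed sign. The joined miR319a and miR319b entry had 311 and 254 RPM in ktn1 against 234.9 and 251.0 RPM in WT.

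miR162a-3p and miR162b-3p, the feedback regulators of DICER-LIKE 1, had 849 and 694 RPM in ktn1, against 617 and 607 RPM in WT (log2 difference 0.33, SE 0.23, limma adjusted p = 0.643). Both ktn1 libraries were higher here, unlike those of miR168, which targets AGO1 mRNA. Its 5p entry had 35.7 and 29.0 RPM in ktn1 against 46.5 and 45.3 RPM in WT, and miR168a-3p had 35.3 and 25.9 RPM in ktn1 against 43.9 and 41.8 RPM in WT. The silencing-pathway list of miR162, miR168 and miR403 thus had 1 family higher and 1 lower without overlap, beside 10.5% and 44.7% of all families. None was called, and the median was -0.09, or 0.16 at equal summed miRNA RPM, where miR403 changed sign.

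Among the copper miRNAs, miR408-3p had 349 and 308 RPM in ktn1 against 281 and 280.3 RPM in WT (log2 difference 0.22, SE 0.21), whereas the joined miR398b-3p and miR398c-3p entry overlapped between genotypes (log2 difference -0.07, SE 0.28). The list had 2 tested families, 1 higher without overlap, beside 10.5% of all families, and none called. Its median was 0.05, or 0.30 at equal summed miRNA RPM, where miR398 changed sign. miR858a, which targets MYB factors of phenylpropanoid metabolism, had 17.2 and 16.8 RPM in ktn1, against 13.8 and 12.2 RPM in WT. The rarer miR858b had 0.970 and 1.09 RPM in ktn1, against 0.218 and 0.320 RPM in WT. Both loci were thus higher in both ktn1 libraries, although the WT values of miR858b rest on 3 and 5 reads and it lay below the level tested. miR396b-5p, which acts on growth-regulating factors, differed by -0.03 on the log2 scale (SE 0.23). Of the NAC, GRAS, F-box and GRF list, 4 families were tested, and 1 (miR164) lay lower without overlap, beside 44.7% of all families. None was called, and the median was -0.22, or 0.03 at equal summed miRNA RPM, where miR171 and miR396 changed sign.

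The remaining lists held few tested families and none was called: phosphate (miR399 and miR827) with a median of 0.08, sulfate (miR395) with 0.02, miR846 on the NLR list with 0.02, and the DICER-LIKE 4-dependent miR822 with 0.15, all with overlapping genotypes as deposited. At equal summed miRNA RPM these medians were 0.33, 0.27, 0.27 and 0.40, and miR827 changed sign. On that scale miR399, miR846 and miR822 lay higher in ktn1 without overlap, beside 28.9% of all families. miR775, in no list, had 16.4 and 11.8 RPM in ktn1 against 20.0 and 19.3 RPM in WT. In whole seedlings, fewer cells of a type and less RNA per cell cannot be told apart in any of these values.

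The strand ratio, log2 of (5p RPM + 1) over (3p RPM + 1), compares both arms of a family within a library and, apart from the pseudocount, does not depend on the library's total. Of 42 families with both arms listed, 26 were tested, 11 with 5p as the main arm and 15 with 3p. No ratio passed an adjusted p under 0.05 in limma (0.0% in either direction), and 3 had an unadjusted p under 0.05 (11.5%). The median difference was -0.04, and the ratio lay higher in both ktn1 libraries than in both WT libraries for 5 families (19.2%) and lower for 8 (30.8%). The minor arm took a larger share in both ktn1 libraries than in both WT libraries in 11 families (42.3%), and a smaller share in 4 (15.4%). The 11 were miR156, miR157, miR159, miR160, miR164, miR165/miR166, miR167, miR172, miR390, miR393 and miR846, and the 4 were miR162, miR169, miR173 and miR408. In the ratio itself miR169 and miR173 overlapped between genotypes. The miR173-3p share rests on 3 and 3 reads in ktn1 against 11 and 5 in WT. The 5p arm of miR172 had 0.88 and 1.82 RPM in ktn1 against 0.73 and 0.77 RPM in WT. The miR159 share and ratio leave out miR159a, which has no arm name.

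miR157 had the widest gap. Its 3p arm took 52.9% and 53.9% of the family's arm-named RPM in ktn1, against 19.5% and 44.7% in WT, a strand ratio difference of -1.35 (SE 0.59, limma adjusted p = 0.398). The 2 ktn1 libraries nearly coincided, while WT replicate 1 stood far from WT replicate 2. The difference was -0.50 without WT replicate 1 and -2.20 without WT replicate 2, where it passed the threshold (limma adjusted p = 1.5e-05), with the lone WT library assumed to vary like ktn1. The 5p arm of miR172 took 5.20% and 10.9% in ktn1, against 3.46% and 3.15% in WT, a difference of 0.87 (SE 0.30, adjusted p = 0.389). The 3p arm of miR164, a regulator of NAC factors, took 9.74% and 12.1% in ktn1, against 6.77% and 7.61% in WT, a difference of -0.63 (SE 0.23, adjusted p = 0.389). In miR172 and miR164 the minor arm was higher in both ktn1 libraries.

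Further large differences were those of miR158 (0.96, SE 0.77), miR393 (0.59, SE 0.24) and miR167 (-0.76, SE 0.38), with limma adjusted p of 0.594, 0.389 and 0.398. The miR158 value came from a 5p arm that took 0.053% in WT replicate 1, against 0.307% in WT replicate 2 and 0.228% and 0.313% in ktn1, so its genotypes overlapped. For miR165/miR166 the 5p arm took 12.5% and 15.1% in ktn1, against 11.2% and 9.45% in WT, a difference of 0.47 (SE 0.23, adjusted p = 0.398). miR408 had the opposite sign, with 10.3% and 11.3% of its RPM on the 5p arm in ktn1 against 15.7% and 14.2% in WT.

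**Figure D4:**
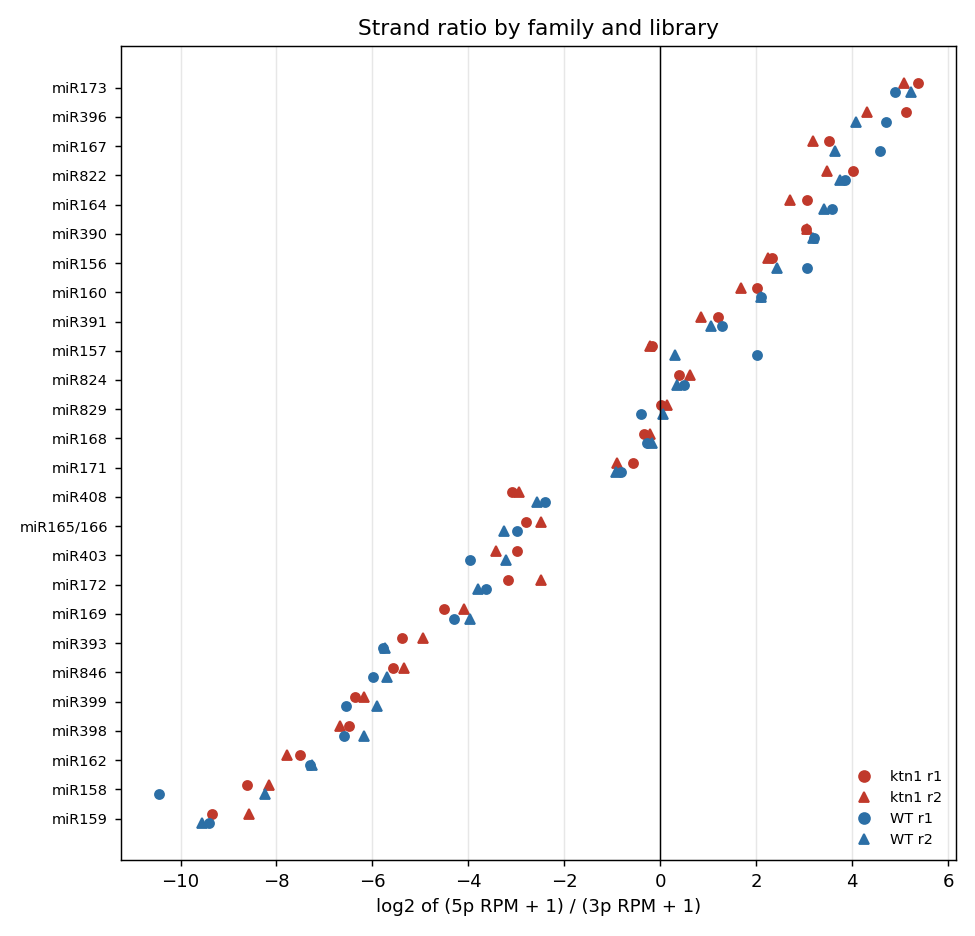
Strand ratio (horizontal axis, log2 of 5p RPM + 1 over 3p RPM + 1) of the 26 tested families in each library, ordered by the WT mean; red is ktn1, blue is WT, circles are replicate 1 and triangles replicate 2. Both genotypes run from miR159 at the 3p end to miR173 at the 5p end, and miR157 shows both ktn1 libraries just below 0 against WT values of 2.01 and 0.31.

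Whether the ktn1 difference in seedlings departs from that in the root AGO1 libraries was tested as an interaction in a limma fit over all 12 libraries and 59 families. Entries that a library's file did not list entered this fit as having no reads. The seedling and AGO1 libraries differ in organ, age and molecule as well, and these cannot be told apart. Against the ACL5 libraries 2 families passed an adjusted p under 0.05 (3.39%) and 8 an unadjusted one (13.6%). Against the EN7 libraries these counts were 1 (1.69%) and 9 (15.3%). miR165/miR166 had 1251 and 1047 RPM in ktn1 seedlings, against 1257 and 1281 RPM in WT seedlings. In ACL5 AGO1 libraries it had 14477 and 15053 RPM in ktn1 against 46829 and 44017 RPM in WT, and in EN7 AGO1 libraries it had 344180 and 347498 RPM in ktn1 against 123997 and 121589 RPM in WT.

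The seedling difference of miR165/miR166 was -0.15 on the log2 scale (SE 0.21), between -1.62 in ACL5 and 1.49 in EN7 libraries. It exceeded the ACL5 difference by 1.47 (SE 0.30, limma adjusted p = 0.0139) and lay below the EN7 difference by -1.64 (SE 0.30, adjusted p = 0.0116). With all libraries at equal summed miRNA RPM the EN7 contrast was -0.65 (adjusted p = 0.186), while the ACL5 contrast was 1.98 (adjusted p = 0.00249). The ACL5 contrast passed the threshold without either ktn1 seedling library or any EN7 library, but not without the mean-variance trend (adjusted p = 0.168), a WT seedling library (0.0992 and 0.0918) or any ACL5 library (0.0665 to 0.0987), with values of 1.34 to 1.60 throughout. The EN7 contrast failed without the trend (0.252) and without either WT seedling library (0.0842 and 0.0998).

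miR3932 had 54.7 and 23.4 RPM in ktn1 seedlings, against 42.1 and 32.9 RPM in WT seedlings. In ACL5 AGO1 libraries it had 55.2 and 64.5 RPM in ktn1 against 1.44 and 1.72 RPM in WT, and in EN7 AGO1 libraries 17.8 and 13.4 RPM in ktn1 against 2.29 and 0 RPM in WT. ktn1 lay above WT in both AGO1 sets, and the genotypes overlapped in seedlings. The interaction was -4.61 (SE 0.87, limma adjusted p = 0.0139), with seedling and ACL5 differences of -0.05 and 4.56. It missed the threshold without seedling ktn1 replicate 2 (adjusted p = 0.0617), either seedling WT library (0.091 and 0.0541), ACL5 ktn1 replicate 2 (0.063) or either ACL5 WT library (0.0987 and 0.067). Against EN7, where the difference was 3.18, the interaction of -3.23 had an adjusted p of 0.101. Without EN7 WT replicate 1 it was -4.09 (adjusted p = 0.00826), a value in which the lone EN7 WT library, at 0 RPM, is assumed to vary like the other groups.

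**Figure D5:**
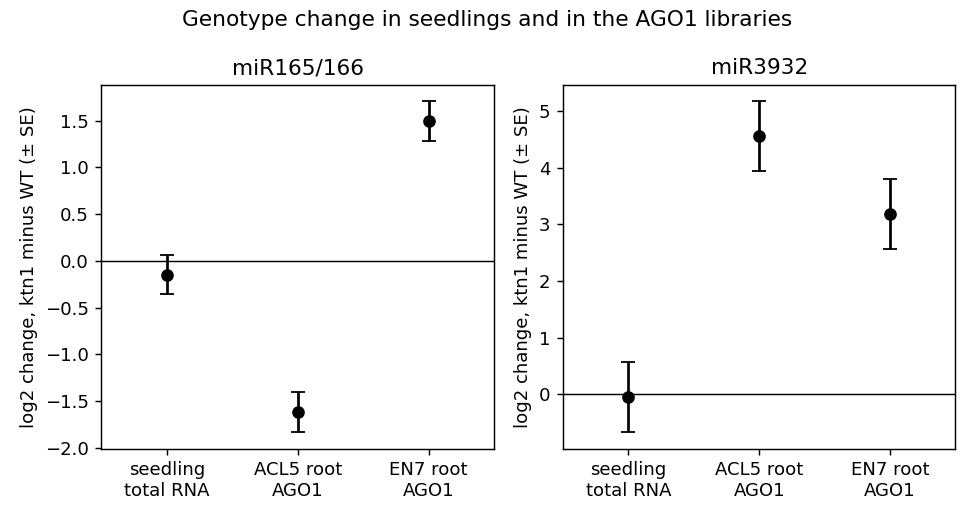
Log2 difference, ktn1 minus WT, with its standard error from the 12-library fit (vertical axis) for miR165/miR166 and miR3932 in seedling total RNA, ACL5 root AGO1 and EN7 root AGO1 libraries. The seedling points lie near 0, at -0.15 and -0.05, between or below the AGO1 points.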

How the data were processed

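Small RNA was extracted from seedlings with TRI Reagent, and libraries were built with a NEBNext kit for small RNA, both per the labels' protocols. The deposited values are RPM per mature miRNA, made by the authors. The denominator is not given in the sources used here. The submitters' processing notes name cutadapt, Bowtie and TAIR10, without versions for the tools. Names were matched to RefSeq TAIR10.1. Every value was a whole multiple of the smallest to within 0.01 read, from which reads were inferred.

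Entries were summed into families by number and into arms by name. Main tests used limma 3.58.1 in R 4.3.3 with a mean-variance trend on log2(RPM + 1), entries or families of at least 10 RPM in 2 libraries, and Benjamini-Hochberg adjustment at 0.05. Strand ratios had no trend. Because the trend set each spread, entries had 124 degrees of freedom, and p-values treat miRNAs as independent. The fit was also run on simulated data with independent noise of a single common spread. That setting leaves out shifts of whole libraries, so it does not show how the fit behaves on these data. Levels, shares and exact permutation tests used Python 3.11.15 with SciPy 1.17.1.

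Named in the text were called results, the 10 most abundant entries and families, the 5 largest differences in each direction without overlap, all members of miR156, miR157, miR165, miR166 and miR172, and the 3 largest strand differences each way. The members, function lists and tests were chosen with earlier results of these data known. Alternatives changed scaling, filter, pseudocount, trend, replicate block and libraries. Replicates of a genotype differed beyond sampling noise and were counted separately. Mature sequences, first bases and lengths were not analysed here.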

Additional observations from a re-analysis of the deposited data

Results flagged for a closer look

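The ktn1 difference of miR165/miR166 was tested between seedlings and root AGO1 libraries and differed from both in values as deposited. It exceeded that in the ACL5 libraries by 1.47 on the log2 scale (SE 0.30, limma adjusted p = 0.0139, both ktn1 libraries below both WT libraries in ACL5). It lay below that in the EN7 libraries by -1.64 (SE 0.30, limma adjusted p = 0.0116, both ktn1 libraries above both WT libraries in EN7). Both calls were lost without the mean-variance trend (adjusted p = 0.168 and 0.252) and without either WT seedling library, and the EN7 contrast was -0.65 (adjusted p = 0.186) at equal summed miRNA RPM. For miR3932 the seedling difference lay below the ACL5 difference by -4.61 (SE 0.87, limma adjusted p = 0.0139), with ktn1 above WT in both ACL5 pairs and overlapping genotypes in seedlings. The ACL5 WT values were only 1.44 and 1.72 RPM. The miR3932 call was lost without seedling ktn1 replicate 2, either seedling WT library, ACL5 ktn1 replicate 2 or either ACL5 WT library.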

How the results depend on the processing

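Of the summary values recomputed under the alternatives, most of them counts of called results, 102 stayed equal or close in size and 54 moved. Among the differences of named items, 36 recomputed values changed sign. The count of lower entries, 1 as reported, became 0 with a replicate block, a 50 RPM filter, a pseudocount of 5 RPM, either rescaling, no trend or all 12 libraries. With no filter it became 3, with 1 higher, and it ranged from 0 to 5 without each replicate, 5 being without ktn1 replicate 1. Lower families, 0 as reported, became 1 with no filter, a pseudocount of 0.1 RPM, related numbers joined, or the crossed replicate block chosen after seeing the data, and ranged from 0 to 3 without each replicate. Higher families became 1 at equal summed miRNA RPM and ranged from 0 to 1. The replicate block gave 1 lower strand ratio (miR157). Without each replicate, lower ratios ranged from 0 to 2 and higher from 0 to 1. Calls against ACL5 ranged from 0 to 3 higher and 0 to 5 lower, and calls against EN7 from 0 to 8 higher and 0 to 5 lower. The higher call against ACL5 and the lower call against EN7 became 0 without the trend, and the EN7 call was also 0 at equal summed miRNA RPM. The 5p share difference was -4.01 points without the highest entry.

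At equal summed miRNA RPM the log2 difference changed sign to 0.19 for miR398b-3p and 0.19 for family miR398, 0.019 for miR166a-3p, 0.23 for miR396b-5p, 0.20 for family miR396, 0.043 for miR167a-5p, 0.07 for family miR167, 0.15 for miR165a-3p, 0.12 for miR156a-3p, 0.12 for family miR159 and 0.11 for family miR165/miR166. At equal median ratio it was 0.11 for miR398b-3p and family miR398, 0.15 for miR396b-5p, 0.12 for family miR396, 0.073 for miR165a-3p, 0.043 for miR156a-3p, 0.041 for family miR159 and 0.027 for family miR165/miR166. Without each replicate the sign changed within ranges of -0.21 to 0.37 (miR159b-3p), -0.38 to 0.24 (miR398b-3p), -0.36 to 0.30 (miR396b-5p), -0.59 to 0.33 (miR156a-3p), -0.18 to 1.12 (miR157a-3p), -0.14 to 0.54 (miR165a-5p), -0.69 to 0.93 (miR157c-3p), -0.39 to 0.12 (family miR159), -0.38 to 0.25 (family miR398), -0.34 to 0.23 (family miR396) and -0.15 to 2.07 (strand ratio of miR158). Where values moved, the cause was not tested beyond what the scaling itself sets.

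Same-numbered libraries share only a number: their deviations correlated at 0.18 over 62 entries, -0.10 over 38 families and 0.26 over 26 strand ratios. Under the replicate block the miR157 5p entry had an adjusted p of 0.322 and the miR165/miR166 contrasts 0.0197 and 0.0175. Count-based tests on inferred reads were not run. With 2 libraries per genotype small differences could be missed, and no detection limit was set.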
